A study of Homo sapiens with 10 samples.

Results

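The mRNA of 10 intermediate filament genes was compared between EA.hy926 and HMEC-1, a pair of human endothelial cell lines. The genes are 6 keratins (KRT7, KRT8, KRT18, KRT19, KRT80 and KRT81), vimentin (VIM), nestin (NES) and the lamins LMNA and LMNB1. They were found in the count table by the Ensembl identifiers that GENCODE 44 pairs with these symbols, and all 10 were present among its 60448 genes. EA.hy926 was made by fusing umbilical vein endothelial cells with A549, an epithelial lung carcinoma line, whereas HMEC-1 descends from microvascular endothelium of the skin, immortalised with the large T antigen of SV40. Both are labelled wild type and were left untreated, and 5 libraries were sequenced per line, each from a separate biological replicate of a confluent monolayer. EA.hy926 was grown in Advanced DMEM with serum. HMEC-1 was grown in MCDB 131 with epidermal growth factor, hydrocortisone and a larger share of serum, so line and medium cannot be told apart. The study asked how the transcripts of the cytoskeleton differ between these lines. Replicates of an established line measure the spread between its cultures, not between endothelial cells of different people.

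Intermediate filaments are the rope-like part of the cytoskeleton. Keratins are the filaments of epithelia and form only from pairs of a type I and a type II chain, and KRT8 (type II) with KRT18 (type I) is the usual pair of simple epithelia. Vimentin, the filament protein of endothelial and mesenchymal cells, polymerises on its own, and nestin, known from progenitor cells and from growing vessels, needs a partner such as vimentin. Lamins line the inside of the nuclear membrane, with A-type lamins from LMNA and B-type lamins from LMNB1 and LMNB2. Endothelial cells as a rule hold much vimentin and little keratin.

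The EA.hy926 libraries held 34846046 to 39899324 counts and those of HMEC-1 33391640 to 43877224. Levels are given as CPM, the counts of a gene divided by the library size after TMM scaling, per 1000000 counts, and 3 counts amounted to 0.0651 to 0.0904 CPM. Of 12 endothelial markers all 12 passed the filter on low counts, and their summed level was 4736 to 5395 CPM in EA.hy926, whereas HMEC-1 had 1756 to 1808 CPM. CDH5, the cadherin of endothelial junctions, stood at 1268 ± 63.1 CPM in EA.hy926, whereas HMEC-1 had 441 ± 5.39 CPM (SD, n = 5 for each line), so the defining marker was present in both. Of the 12, 8 were called, 6 higher in EA.hy926 and 2 lower. The junction proteins ESAM (log2FC 5.28) and PECAM1 (2.68) and the secreted factor EGFL7 (1.54) were the 3 furthest in the higher direction. EMCN, the sialomucin endomucin, had 0 to 2 counts in EA.hy926, whereas HMEC-1 had 678 to 844, and CLDN5, a claudin of endothelial tight junctions, the other one lower in EA.hy926, had a log2FC of -4.27. ERG, with a log2FC of 1.01, passed both thresholds described next with all libraries and fell below the fold limit without HMEC-1 replicate 1, 3, 4 or 5, at 0.99 to 1.00.

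A difference between the lines is given as the log2FC, the log2 ratio of EA.hy926 to HMEC-1 from edgeR's quasi-likelihood test, and a gene was called when its adjusted p was under 0.05 and its log2FC was above 1 or below -1. Of the 10 genes, 9 passed the filter and 6 of these were called, with KRT8, KRT80, VIM and LMNA higher in EA.hy926 and KRT19 and NES lower. Among all 16310 genes tested 35.5% were called, 19.1% higher and 16.4% lower. An adjusted p under 0.05 alone was reached by all 9 tested genes, 6 higher and 3 lower, but also by 85.8% of all genes, so it says little by itself. The CPM ranges of the lines did not overlap for any of the 9 genes, which held for 77.4% of all genes. The median log2FC was 0.99 over the 9 genes and -0.01 over all genes tested, and the median absolute log2FC was 1.36 and 0.65. KRT81 failed the filter, and KRT19 passed it only through its level in HMEC-1. Without 1 library, 6 to 8 of the 10 genes were called, because KRT7 and KRT81, described below, moved past a limit.

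**Figure D1:**
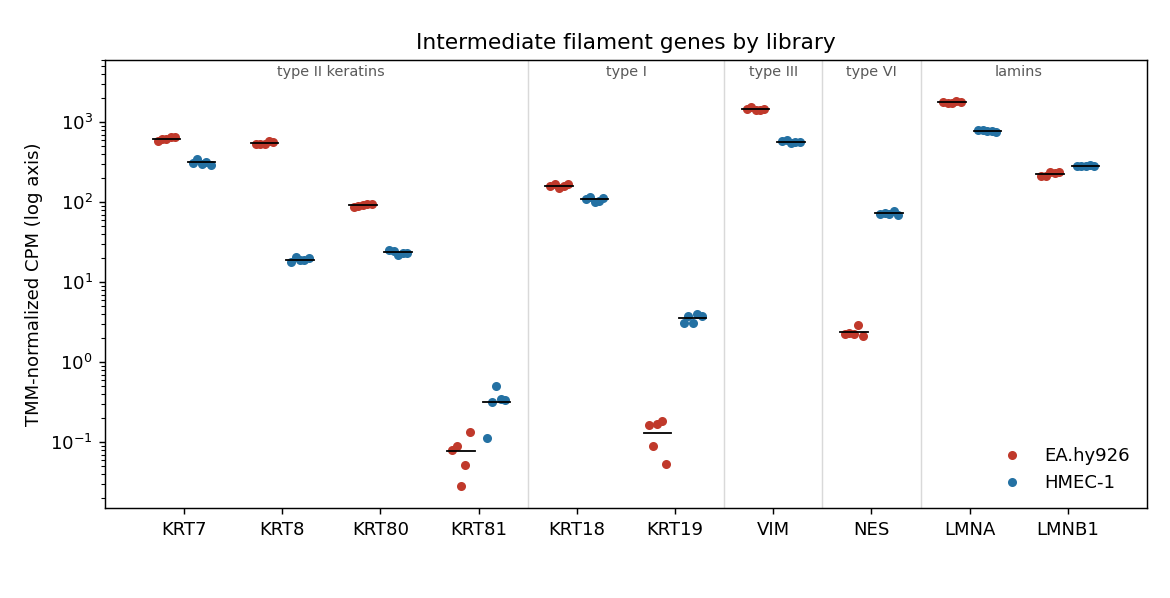
Level of each of the 10 genes in the 10 libraries, as CPM on a log axis, with a point for each library and a line at the mean of each line's 5 libraries. KRT8 and NES lie farthest apart, in opposite directions, and KRT81 is the gene whose libraries overlap between the lines.

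The type II keratins KRT7, KRT8, KRT80 and KRT81 lie within one cluster on chromosome 12, and KRT8 had the largest difference of them. KRT8 (ENSG00000170421, GRCh38 chr12:52897187-52949954, minus strand) makes the type II chain of simple epithelia. In EA.hy926 it had 526, 540.2, 529, 577 and 559.9 CPM in replicates 1 to 5, from 17930 to 22163 counts. In HMEC-1 it had 17.9, 20.4, 18.9, 18.9 and 19.8 CPM, from 629 to 871 counts. Every EA.hy926 library was thus far above every HMEC-1 library, and the means of 546 ± 21.7 and 19.2 ± 0.947 CPM (SD, n = 5) were 28.5-fold apart. The log2FC was 4.83 (SE 0.038, edgeR adjusted p = 1.2e-27), and 8.15% of all genes tested had a larger change. KRT8 was not absent from HMEC-1, where even the lowest library held 629 counts.

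KRT7 (ENSG00000135480, GRCh38 chr12:52232520-52252186, plus strand) makes another type II chain, found in ductal and glandular epithelia, and was the most abundant keratin of both lines per kilobase of exon. Its level was 586, 608, 608, 651 and 658 CPM in EA.hy926, whereas HMEC-1 had 311, 345, 299.95, 318 and 294 CPM. The groups did not overlap, and the means of 622 ± 30.7 and 313.5 ± 19.6 CPM (SD, n = 5) gave a log2FC of 0.99 (SE 0.039, edgeR adjusted p = 5.7e-16). This lies just under the fold limit, so KRT7 was not called. It passed the limit without EA.hy926 replicate 1 (1.01), 2 (1.00) or 3 (1.00) or without HMEC-1 replicate 2 (1.01), and the other 6 values without 1 library were 0.95 to 0.98. Of all genes tested, 35.9% had a larger change.

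KRT80 (ENSG00000167767, GRCh38 chr12:52168996-52192014, minus strand) makes a type II chain that is spread over many epithelia and lies close to desmosomes and the cell edge. Its CPM was 87.4, 90.7, 93.3, 94.5 and 94.9 in EA.hy926 and 25.1, 24.6, 21.9, 23.1 and 23.5 in HMEC-1. The libraries of each line lay close together and the lines were 3.90-fold apart, with means of 92.2 ± 3.12 and 23.6 ± 1.26 CPM (SD, n = 5) and a log2FC of 1.97 (SE 0.037, edgeR adjusted p = 1.5e-21). No exon of another gene overlaps KRT80, and its transcript shares no stretch of 100 bases with one.

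KRT81 (ENSG00000205426, GRCh38 chr12:52285913-52291534, minus strand), a type II keratin of hair, was close to the limit of detection. It had 1 to 5 counts in the EA.hy926 libraries and 4 to 23 in those of HMEC-1. The corresponding levels were 0.081, 0.090, 0.028, 0.052 and 0.135 CPM against 0.114, 0.319, 0.499, 0.343 and 0.340 CPM, so that HMEC-1 replicate 1 fell within the range of EA.hy926. KRT81 was not tested with all libraries. It passed the filter and was called without any 1 of the EA.hy926 libraries or without HMEC-1 replicate 1, at a log2FC of -2.33 to -1.85, and with no filter its log2FC was -2.06 (SE 0.47, edgeR adjusted p = 2.6e-05). Of the 100-base windows of its main transcript, 30.3% also occur in other genes, which are the neighbouring hair keratin KRT86, ENSG00000287051 and KRT87P, so the counting could split reads between them. KRT86 had 0 to 5 counts in EA.hy926 libraries and 5 to 20 in those of HMEC-1.

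The type I keratins showed a different picture, with a small difference in KRT18 and a large one, in the other direction, in KRT19. KRT18 (ENSG00000111057, GRCh38 chr12:52948871-52952906, plus strand) is the type I partner of KRT8 and its neighbour on the chromosome. It had 161, 166, 149.8, 159.5 and 169 CPM in EA.hy926, whereas HMEC-1 had 109, 116, 101, 102 and 111 CPM. The lowest EA.hy926 library stood above the highest of HMEC-1, at means of 161 ± 7.27 and 108 ± 6.36 CPM (SD, n = 5). The log2FC was 0.58 (SE 0.038, edgeR adjusted p = 4.9e-12), under the fold limit, and 54.3% of all genes tested had a larger change.

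KRT19 (ENSG00000171345, GRCh38 chr17:41523617-41528308, minus strand), the smallest keratin and a marker of ductal epithelia, was almost absent from EA.hy926. It had 2 to 7 counts there, or 0.162, 0.090, 0.171, 0.182 and 0.054 CPM, and 109 to 165 counts in HMEC-1, or 3.11, 3.82, 3.06, 4.05 and 3.77 CPM. All 5 HMEC-1 libraries were higher than all 5 of EA.hy926, and the log2FC was -4.71 (SE 0.21, edgeR adjusted p = 7.1e-15). The SE was larger than that of the other 8 tested genes. The HMEC-1 level of 3.56 ± 0.449 CPM (SD, n = 5) came to 1.52 CPM per kilobase of exon, low beside the 35.2 of KRT18 on the same scale.

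KRT8 and KRT18 form one filament pair, so their ratio within each library was compared. With both taken per kilobase of exon, the log2 ratio of KRT8 to KRT18 was 0.60 ± 0.070 in EA.hy926 and -3.66 ± 0.070 in HMEC-1 (SD, n = 5), from 0.54 to 0.69 and from -3.76 to -3.59. The difference of 4.26, or 19.1-fold, had p = 0.00794 in a two-sided exact permutation test, adjusted p = 0.00794 over the 3 ratios compared. No smaller p is possible with 5 libraries against 5. The ratio rests on the same counts as the log2FC values of KRT8 and KRT18, so its p adds no separate support. On a linear scale KRT8 mRNA was 1.51 times KRT18 mRNA in EA.hy926 and 0.079 times in HMEC-1. Counted per kilobase of the main transcript instead, these values were 2.69 and 0.141, so that KRT8 exceeded KRT18 in EA.hy926 and lay far under it in HMEC-1 on both scales.

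Exons of KRT8 cover 17.1% of the exonic bases of KRT18 on the opposite strand, and exons of KRT18 cover 7.63% of those of KRT8. Without a strand setting, reads from this stretch cannot be told apart. KRT8 also has 51 annotated pseudogenes named after it, of which 18 held any counts. Their summed counts were 666 to 731 in EA.hy926, 3.19% to 3.58% of parent and pseudogenes together, and 147 to 237 in HMEC-1, 17.3% to 21.4%. Adding them to KRT8 moved its log2FC from 4.83 to 4.58. KRT18 has 67 pseudogenes that held 19 to 57 counts per library, under 1% of its own, and adding them left its log2FC at 0.58.

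All keratins together took 0.146% of the TMM-scaled library size in EA.hy926 and 0.0485% in HMEC-1. Summed per kilobase of exon, type II keratins stood at 256 ± 11.2 CPM per kb in EA.hy926 and 86.9 ± 5.13 in HMEC-1, and type I keratins at 63.4 ± 2.81 and 44.2 ± 2.45 (SD, n = 5). Type II mRNA therefore exceeded type I mRNA in each line, by 4.05 times (3.81 to 4.29) in EA.hy926 and 1.97 times (1.86 to 2.08) in HMEC-1. These sums are given as descriptions, without a test. The type II sum of EA.hy926 was made up of KRT7 (60.7%), KRT8 (31.0%) and KRT80 (8.25%), whereas in HMEC-1 KRT7 alone made up 90.2%, KRT80 6.24% and KRT8 3.21%. KRT18 was the bulk of the type I sum in both lines, with 82.9% and 79.6%. Per kilobase of the main transcript the share of KRT8 was 43.0% against 5.13% and the ratio of type II to type I was 5.37 against 2.42. For these 2 values the order of the lines was the same. The share of KRT18 was then 85.8% in EA.hy926 and 88.0% in HMEC-1, so its order turned.

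**Figure D2:**
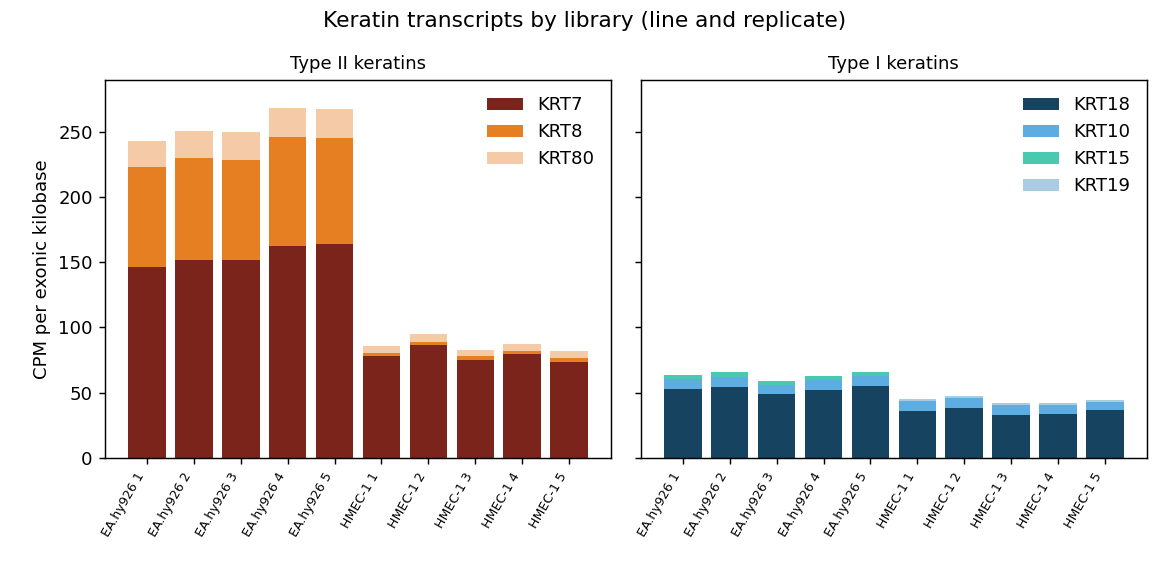
Keratin mRNA in each of the 10 libraries, as stacked bars of CPM per kilobase of exon, with type II keratins on the left and type I keratins on the right on the same scale. The KRT8 segment is broad in the 5 EA.hy926 libraries (31.0% of type II mRNA on average) and narrow in the 5 of HMEC-1 (3.21%), while KRT18 is the main type I keratin in all 10.

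Of the 49 other keratin genes, 44 had at most 3 counts in every library and 29 of these had none. Among the 44 are KRT5 and KRT14, the pair of basal epithelium, KRT1, and KRT20. Only KRT10 and KRT15, both type I, passed the filter. KRT15, which marks basal and stem-like epithelial cells, had 632 to 740 counts in EA.hy926, whereas HMEC-1 had 12 to 35. Its level of 18.8 ± 2.04 CPM was far above the 0.609 ± 0.197 CPM of HMEC-1 (SD, n = 5), with a log2FC of 4.93 (SE 0.13, edgeR adjusted p = 3.5e-19). KRT15 thus ran opposite to KRT19, its neighbour on chromosome 17. KRT10, known from the upper epidermis, stood at 16.4 ± 1.04 and 15.9 ± 1.71 CPM (SD, n = 5), overlapped between the lines and gave a log2FC of 0.05 (SE 0.066, edgeR adjusted p = 0.48).

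Most of the epithelial genes listed as markers, such as cadherins and transcription factors of epithelia, had few or no counts in both lines. CDH1, ELF3, GRHL2, ESRP1, OVOL1, OVOL2 and RAB25 had at most 3 counts in every library. Of the 16 genes, 7 were tested and 6 called, TP63 and EPCAM higher in EA.hy926 and GRHL3, KLF5, SFN and GRHL1 lower. Of these, TP63, EPCAM, GRHL3, KLF5 and SFN passed the filter only through the line where they were higher. TP63 had 1 to 12 counts in HMEC-1, and GRHL3 had 0 to 4 and SFN 0 to 5 in EA.hy926. With at least 10 counts required in every library, 1 of the 16 was called. The summed level of the 16 was 2.99 to 4.79 CPM in EA.hy926, whereas HMEC-1 had 9.72 to 11.7 CPM. The sum was thus lower in the line with more KRT8, but in HMEC-1 it came mostly from GRHL1 and KLF5. GRHL1 stood at 1.37 ± 0.214 CPM in EA.hy926 and 6.27 ± 0.782 in HMEC-1 (SD, n = 5). KLF5 stood at 0.199 ± 0.0805 and 1.94 ± 0.308 CPM. TP63 and EPCAM went the other way, so the sum does not stand for the whole list. The part of these genes in the keratin differences was not tested. EPCAM, the epithelial adhesion molecule, had 25 to 40 and 4 to 22 counts. The factors GRHL1, with 39 to 57 and 188 to 305 counts, and KLF5, with 3 to 11 and 64 to 90 counts, were well measured in HMEC-1.

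Vimentin and nestin, which can build one filament, differed in opposite directions. VIM (ENSG00000026025, GRCh38 chr10:17228241-17237593, plus strand) had 1467, 1533, 1421, 1429 and 1439 CPM in EA.hy926, whereas HMEC-1 had 575, 598, 547, 566 and 558 CPM. It was higher in all 5 EA.hy926 libraries, with means of 1458 ± 45.5 and 569 ± 19.4 CPM (SD, n = 5), and the log2FC was 1.36 (SE 0.028, edgeR adjusted p = 7.0e-21). NES (ENSG00000132688, GRCh38 chr1:156668763-156677407, minus strand) had 2.27, 2.29, 2.28, 2.94 and 2.16 CPM in EA.hy926, whereas HMEC-1 had 70.5, 73.0, 70.9, 78.2 and 70.1 CPM. It was therefore lower in EA.hy926 in every library, at 76 to 113 counts against 2473 to 3271, and replicate 4 of EA.hy926 stood apart from the other 4. The means of 2.39 ± 0.314 and 72.6 ± 3.36 CPM (SD, n = 5) were 30.4-fold apart, and the log2FC of -4.92 (SE 0.060, edgeR adjusted p = 1.2e-24) was the largest change of the 9 tested genes, with 8.01% of all genes tested beyond it.

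Within a library, the log2 ratio of NES to VIM, both per kilobase of exon, was -9.37 ± 0.19 in EA.hy926 and -3.08 ± 0.074 in HMEC-1 (SD, n = 5). NES was thus 78.3-fold higher relative to VIM in HMEC-1. The exact permutation test gave p = 0.00794 and adjusted p = 0.00794 over 3 ratios, the smallest it can give. This outcome follows from the opposite differences of NES and VIM described above, so the p adds no separate support. Exons of VIM-AS1 and ENSG00000234961 cover 24.6% of the exonic bases of VIM. VIM-AS1 had 113 to 153 counts in EA.hy926, whereas HMEC-1 had 35 to 48, against 20160 or more of VIM, and ENSG00000234961 had none. NES overlaps no other gene's exons.

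VIM was the most abundant of the 10 genes per kilobase of exon in both lines, at 282 and 109.9 CPM per kb. Against the sum of all keratins per kilobase of exon, the ratio of VIM was 0.883 in EA.hy926 (0.835 to 0.933) and 0.839 in HMEC-1 (0.809 to 0.852). These ranges overlap. Per kilobase of the main transcript the order turned and the ranges did not overlap. The ratio was then 0.802 in EA.hy926 (0.754 to 0.848) and 0.890 in HMEC-1 (0.857 to 0.903). Vimentin mRNA was thus higher in EA.hy926, while its ratio to keratin mRNA had no order that held on both scales.

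Of the mesenchymal genes listed as markers, 13 of 17 were tested, and 1 was called higher in EA.hy926 and 8 lower. By an adjusted p under 0.05 alone, 4 were higher and 9 lower. The summed level was 891 to 939 CPM in EA.hy926 against 5493 to 5905 CPM in HMEC-1, and FN1 made up most of it in both lines. COL1A1, a chain of type I collagen, had 7 to 15 counts in EA.hy926, whereas HMEC-1 had 12634 to 16454, and FN1, fibronectin, stood at 539 ± 19.2 and 4953 ± 163 CPM (SD, n = 5). CDH2, the neural cadherin, was the 1 called higher, with a log2FC of 1.94. ZEB1, at 0.99, passed the limit without EA.hy926 replicate 2 (1.00) or 4 (1.02), and S100A4, at 1.00, passed it without EA.hy926 replicate 2, 4 or 5 or HMEC-1 replicate 2, 3 or 5 (1.00 to 1.02). VIM, which is often listed with these genes, ran opposite to the 8 that were lower, and NES ran with them, and the part of these genes in the VIM and NES differences was not tested. COL1A2, the other chain of that collagen, had 0 to 3 against 3831 to 5083 counts. The transcription factor SNAI2 had 90 to 129 counts in HMEC-1 and none in EA.hy926, at least 31.2-fold lower against the CPM of 3 counts. COL1A1, COL1A2, COL3A1, SNAI2 and THY1 passed the filter only through their level in HMEC-1. DCN and LUM, which mark fibroblasts, had no counts in any library.

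The stretches of 250 bases just before the transcription start of VIM and NES were taken from RefSeq (GRCh38.p14) and are shown because the mRNA of these partners differed in opposite directions. They read 5′ to 3′ on the strand of the gene, VIM at chr10:17227991-17228240 (plus strand) and NES at chr1:156677408-156677657 (minus strand), with the capitals marking matches to the GC box GGGCGG on either strand.
VIM: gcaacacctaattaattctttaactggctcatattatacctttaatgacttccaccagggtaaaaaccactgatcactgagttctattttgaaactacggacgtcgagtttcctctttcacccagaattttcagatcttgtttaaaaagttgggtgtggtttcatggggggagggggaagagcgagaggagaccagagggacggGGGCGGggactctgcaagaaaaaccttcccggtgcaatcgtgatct
NES: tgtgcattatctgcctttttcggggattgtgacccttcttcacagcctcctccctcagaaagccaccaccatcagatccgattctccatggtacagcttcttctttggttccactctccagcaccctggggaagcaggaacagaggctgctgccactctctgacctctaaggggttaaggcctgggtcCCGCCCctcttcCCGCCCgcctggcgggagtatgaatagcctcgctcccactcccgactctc
The VIM stretch held 1 GC box, beginning 46 bases before the start, and the NES stretch held 2, beginning at 62 and 50 bases. The GC content was 46.0% for VIM and 58.0% for NES, beside a median of 58.0% over 35116 promoters. A GC box was present in 42.6% of these promoters, so it does not set VIM and NES apart from them.

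The lamins also differed in opposite directions. LMNA (ENSG00000160789, GRCh38 chr1:156082573-156140081, plus strand) makes lamins A and C, which stiffen the nucleus. It had 1758, 1719, 1729, 1831 and 1762 CPM in EA.hy926, whereas HMEC-1 had 795, 791, 772, 784 and 748 CPM. All EA.hy926 libraries were higher, the means of 1759.9 ± 43.8 and 778 ± 19.0 CPM (SD, n = 5) were 2.26-fold apart, and the log2FC was 1.18 (SE 0.025, edgeR adjusted p = 1.1e-20). LMNB1 (ENSG00000113368, GRCh38 chr5:126776623-126837020, plus strand) makes lamin B1, which stays anchored in the membrane by a lipid. It had 215, 214, 235, 229 and 235 CPM in EA.hy926, whereas HMEC-1 had 283, 284, 284, 289.955 and 287 CPM. HMEC-1 was higher without overlap, but only 1.27-fold, at 286 ± 2.82 against 226 ± 10.3 CPM (SD, n = 5), with a log2FC of -0.34 (SE 0.028, edgeR adjusted p = 3.5e-10), which is under the fold limit and smaller than in 70.9% of all genes tested.

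The log2 ratio of LMNB1 to LMNA in a library was -1.80 ± 0.067 in EA.hy926 and -0.28 ± 0.041 in HMEC-1 (SD, n = 5) when both were taken per kilobase of exon. The difference was -1.52, a ratio 2.87-fold higher in HMEC-1. The exact permutation test gave p = 0.00794 and adjusted p = 0.00794 over 3 ratios, the smallest it can give. This outcome follows from the opposite differences of LMNA and LMNB1 described above, so the p adds no separate support. LMNB1 mRNA was 0.287 times LMNA mRNA in EA.hy926 and 0.823 times in HMEC-1 per kilobase of exon, and 0.141 and 0.404 times per kilobase of the main transcript. LMNB2, the other B-type lamin, went the same way as LMNB1, with 444 ± 20.03 CPM in EA.hy926, 771 ± 14.4 in HMEC-1 (SD, n = 5) and a log2FC of -0.80 (SE 0.029, edgeR adjusted p = 1.3e-16). Both B-type lamins were thus lower in EA.hy926 and neither passed the fold limit.

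The 250 bases before the start of both lamin genes (RefSeq, GRCh38.p14, 5′ to 3′) are shown for the same reason, LMNA at chr1:156082323-156082572 and LMNB1 at chr5:126776373-126776622, both on the plus strand. Capitals mark the GC box GGGCGG and the CCAAT box CCAAT on either strand.
LMNA: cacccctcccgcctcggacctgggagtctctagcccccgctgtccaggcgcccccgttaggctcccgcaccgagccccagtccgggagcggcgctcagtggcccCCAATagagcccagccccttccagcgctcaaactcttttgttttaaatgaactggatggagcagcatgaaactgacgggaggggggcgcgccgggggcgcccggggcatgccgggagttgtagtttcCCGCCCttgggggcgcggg
LMNB1: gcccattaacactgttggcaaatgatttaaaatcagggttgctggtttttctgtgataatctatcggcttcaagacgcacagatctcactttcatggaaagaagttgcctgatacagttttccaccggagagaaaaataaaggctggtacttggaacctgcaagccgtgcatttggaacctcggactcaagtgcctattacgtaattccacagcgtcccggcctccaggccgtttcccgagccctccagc
The LMNA stretch held 1 GC box at 19 bases and 1 CCAAT box at 146 bases before the start, and was rich in GC (68.8%). The LMNB1 stretch held neither and had 48.4% GC. A CCAAT box was found in 32.0% of the 35116 promoters, and TATAAA, found in 10.7% of them, was in none of these 4 stretches. RefSeq lists 3 starts for LMNA and 2 for LMNB1, of which those at the start of the GENCODE gene are shown. Counts per gene do not tell which start was used, so the stretches shown need not lie before the main transcripts. KRT8 also has an entry in the RefSeq table, at another start than the GENCODE gene, and is not shown.

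**Figure D3:**
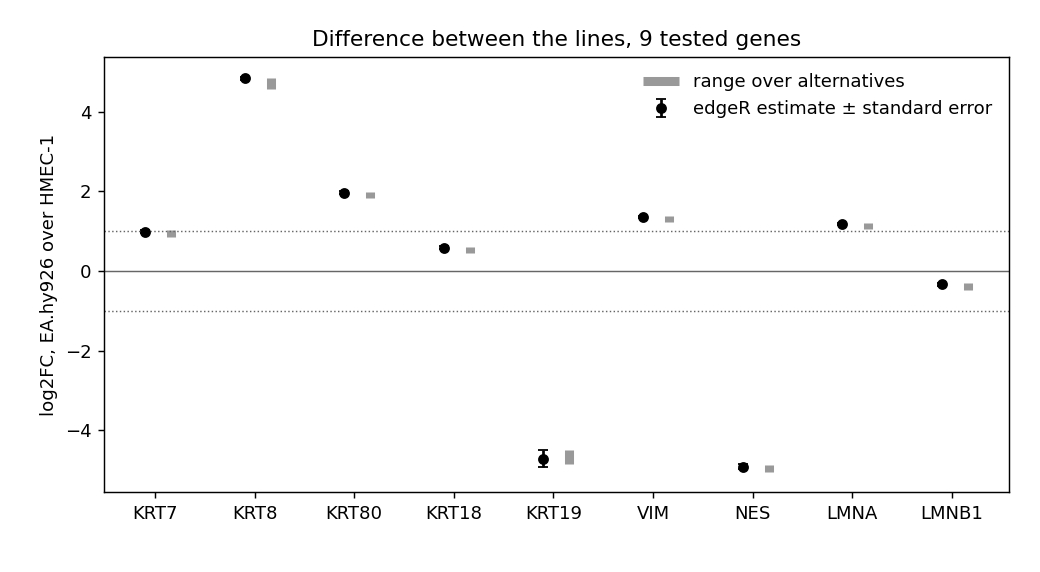
The log2FC of the 9 tested genes with all libraries (points, with bars of 1 SE) and, to the right of each point, the range of the log2FC over the alternative settings and left-out libraries (grey), with dotted lines at the fold limits of -1 and 1. KRT7 lies at a limit, and no range crosses 0.

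The order of levels was compared per kilobase of exon. In EA.hy926 it ran VIM (282 CPM per kb), LMNA (216), KRT7 (156), KRT8 (79.4), LMNB1 (62.1), KRT18 (52.5), KRT80 (21.1), NES (0.429), KRT19 (0.056) and KRT81 (0.040). Only the last pair overlapped between libraries. In HMEC-1 it ran VIM (109.9), LMNA (95.6), LMNB1 (78.6), KRT7 (78.4), KRT18 (35.2), NES (13.0), KRT80 (5.42), KRT8 (2.79), KRT19 (1.52) and KRT81 (0.167), with LMNB1 and KRT7 overlapping. KRT8 stood 4th in one line and 8th in the other. Per kilobase of the main transcript KRT18 (114) came before LMNB1 (78.1) in EA.hy926, and in HMEC-1 KRT7 (193) came before LMNB1 (98.8) and KRT8 (10.8) before KRT80 (6.10).

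Of the 14 other intermediate filament genes, 9 were tested, 1 was called higher in EA.hy926 and 3 lower, with a median log2FC of -0.63 beside -0.01 over all genes. BFSP1, the lens filament protein filensin, was the higher one, at 37.6 ± 1.64 against 2.57 ± 0.315 CPM (SD, n = 5), a log2FC of 3.88 (edgeR adjusted p = 1.4e-22). The heavy neurofilament chain NEFH had 0 to 6 counts in EA.hy926, whereas HMEC-1 had 1031 to 1366, and internexin, INA, another neuronal filament protein, had 0 to 1 and 82 to 116. Like NES, both neuronal genes were lower in EA.hy926. IFFO2, one of the most abundant of the list, was 0.32 higher on the log2 scale, under the fold limit. SYNC, with a log2FC of -1.44, shares 58.0% of its exonic bases with other genes. GFAP, the astrocyte filament protein, at 0.93, passed the limit without EA.hy926 replicate 3 (1.11) or HMEC-1 replicate 1 (1.04).

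Plakins and desmosome proteins tie intermediate filaments to junctions and to other filaments. Of 19 such genes 11 were tested, 4 were called higher and 4 lower, with a median log2FC of 0.43. Plectin, PLEC, which links vimentin, keratins and lamins to other structures, stood at 1570.0 ± 124 CPM in EA.hy926, whereas HMEC-1 had 485 ± 28.9 CPM (SD, n = 5), a log2FC of 1.69 (edgeR adjusted p = 1.1e-18). Plakoglobin, JUP, which joins cadherins to desmoplakin, was higher with a log2FC of 0.64, under the fold limit. Plakophilins, plaque proteins of desmosomes, differed among themselves. PKP3 and PKP2 were higher in EA.hy926, with log2FC values of 5.501 and 2.58, PKP4 was lower (-1.39), as was the plakin EPPK1 (-1.61), and PKP1 had no counts in any EA.hy926 library and 961 to 1114 in HMEC-1. Against the CPM of 3 counts in a library, the level of PKP1 lay at least 287-fold lower than in HMEC-1. Desmoplakin, DSP, which anchors keratins at desmosomes, had 43 to 74 counts in HMEC-1 and none in EA.hy926, at least 15.4-fold lower. The desmosomal cadherins DSC1 to DSC3 and DSG1 to DSG4 had at most 7 counts in any library, so their mRNA was at or near the detection limit in both lines.

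The 17 genes of the nuclear envelope and of lamin processing were all tested, and 3 were called, 1 higher and 2 lower, with a median log2FC of -0.26. This share of 3 in 17 was under the 35.5% of all genes. Among tested genes, the share called was 44.4% for other intermediate filaments, 50.0% for other keratins and 66.7% for endothelial markers. It was 69.2% for mesenchymal, 72.7% for plakin and desmosome and 85.7% for epithelial genes. None of these shares was tested against that of all genes. SYNE1, a nesprin of the outer nuclear membrane, was higher in EA.hy926 (log2FC 1.22), and SUN1 and SUN2, which hold nesprins across the envelope, were lower (-1.0005 and -1.33). The call of SUN1 was lost without any 1 of the 5 EA.hy926 libraries, at -0.999 to -0.986, and 2 genes of the list were called with RLE factors or DESeq2. The lamin B receptor LBR (-0.56) and the lamin-binding TMPO (-0.71) were lower, below the fold limit, in the direction of LMNB1. Of the most abundant genes of the list, BANF1, a DNA-binding partner of lamins, had a log2FC of 0.12 and ICMT, which methylates prelamins, one of -0.87. ZMPSTE24, the protease that matures prelamin A, was close to equal between the lines (0.07, edgeR adjusted p = 0.021).

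**Figure D4:**
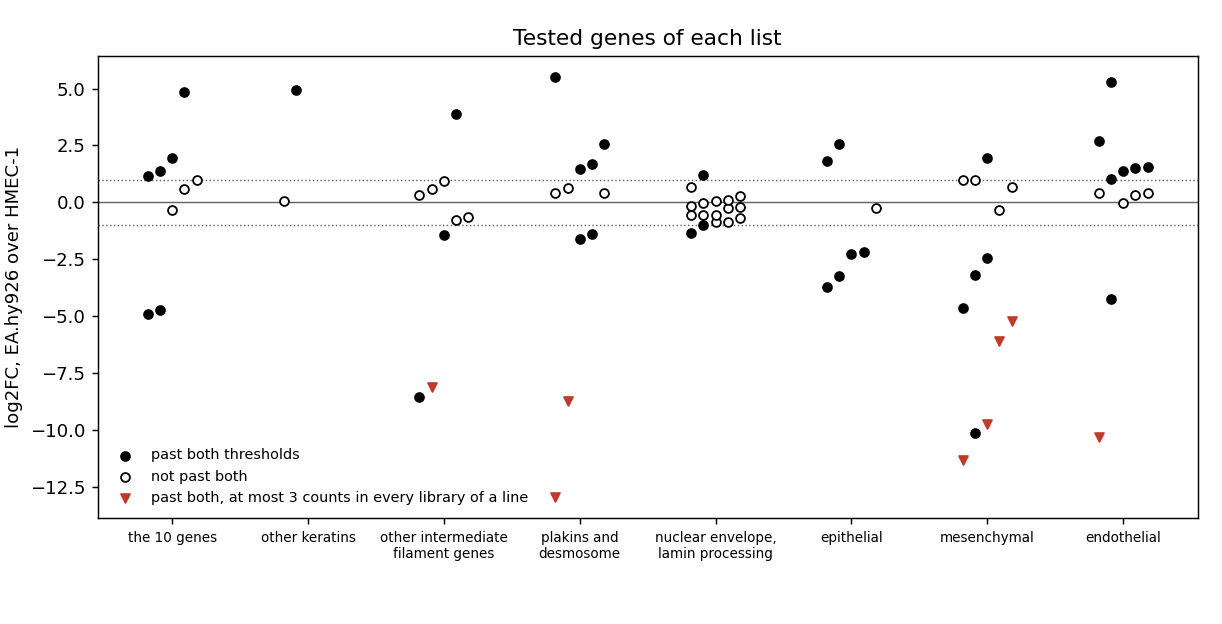
The log2FC of each tested gene in the 10 genes and in the lists of related genes, 1 column a list, with called genes filled and dotted lines at -1 and 1. Triangles mark genes with at most 3 counts in every library of one line, whose fitted value depends on the prior count, and the nuclear envelope genes stay closest to 0.

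For each tested gene the nearest pattern over the 10 libraries was sought, as the smallest root mean square (RMS) difference of centred log2 CPM, which is set mainly by the difference between the lines. The nearest gene to KRT8 was STK31 (0.092), to KRT7 CTNNBL1 (0.047), to KRT80 SH3TC2 (0.058), to KRT18 RPL24P4 (0.042) and to KRT19 GPX3 (0.23). The nearest to VIM was CAPN2 (0.033), to NES ADGRE5 (0.11), to LMNA RPS2 (0.030) and to LMNB1 CTR9 (0.019). None of them is a filament gene. The partners KRT8 and KRT18 lay at an RMS of 2.13, at which KRT8 ranked 15222 of 16310 genes by likeness to KRT18 and KRT18 ranked 4411 by likeness to KRT8. VIM and LMNA lay much closer (RMS 0.10), as did NES and KRT19 (0.40), but many other genes were nearer to each. LMNA ranked 212 by likeness to VIM and VIM 312 by likeness to LMNA. KRT19 ranked 160 by likeness to NES and NES 69 by likeness to KRT19.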

How the data were processed

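The authors selected polyadenylated RNA, sequenced it on an Illumina instrument and aligned it to GRCh38 with HISAT2. The deposited values are raw counts per gene, without normalization. The paper names HTSeq for counting and the submitters' processing notes list featureCounts, with fastp and DESeq2. The strand setting and annotation release are not given in the sources used here. Column names gave the library of each column.

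GENCODE 44 matched 56434 of 60448 identifiers. The filter filterByExpr (at least 10 counts, total of at least 15) left 16310 genes, which were scaled by TMM and tested in edgeR 4.0.16 (R 4.3.3) by the functions glmQLFit and glmQLFTest, with Benjamini-Hochberg adjustment over all genes tested and no covariates. The SE is the absolute log2FC over the square root of F. CPM per kilobase used the union of exons, with the main (canonical) transcript as an alternative chosen after seeing the data. The 3 within-library ratios were compared with two-sided exact permutation tests (scipy 1.17.1). A floor of 3 counts covers counting error only.

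The alternatives were DESeq2 1.42.0, limma-voom (limma 3.58.1), RLE factors, library totals, no filter, 10 counts in every library, the replicate number as a block, pseudogene counts added, and each library left out. The glmTreat test was added after seeing the data. In counts drawn for this comparison, with 196 of 16041 tested genes changed 3-fold, edgeR called 194 of these and 2 others, DESeq2 193 and 1, limma-voom 193 and 1. Far fewer genes were changed there than the 35.5% called between the lines, so these counts do not show the error at that share.

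The genes and lists were chosen with earlier results of these data known. From each list, up to 3 called genes at either end of the log2FC were named, with the 2 genes of highest CPM per kilobase, and for likeness the nearest of 3 genes sought. Other genes were named after their values were seen.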

Additional observations from a re-analysis of the deposited data

Results flagged for a closer look

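NES in EA.hy926 replicate 4 stood apart from the other 4 libraries of the line, at 2.94 CPM against 2.29 for the next, a gap of 0.8293 of the whole range. The log2 ratio of NES to VIM in the same library was -9.03 against -9.39 for the next, a gap of 0.780 of the range. Both values come from the same NES counts. Over 26 groups of 5 libraries examined, chance flags about 1 in 20. Without this library the log2FC of NES was -5.00, beside -4.92 with all libraries.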

How the results depend on the processing

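Of 353 values under alternatives, 338 kept their direction and their side of the threshold (counts of genes, a value near that reported) and none changed direction. For the 9 tested genes this held for 157 of 161, and the other 4 were KRT7 past the fold limit, at 1.00 to 1.01, when 1 of 4 libraries was left out. Over all 10 left-out libraries KRT7 ranged from 0.95 to 1.01. The number of the 10 genes called was 5 with 10 counts in every library, where KRT19 and KRT81 were not tested, 7 with no filter, and 6 to 8 without 1 library.

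Over all genes, 9312 were called with no filter and 3255 with at least 10 counts in every library, beside 5784, and 5945 to 6000 without 1 library. Library totals instead of TMM moved the median log2FC by -0.13 and the split from 3110 higher and 2674 lower to 2809 and 3085, and called 5 nuclear envelope genes in place of 3. With no filter 3 other keratins were called. The filter of 10 counts in all libraries left as called 2 other intermediate filament, 5 plakin and desmosome, 1 epithelial and 5 mesenchymal genes. Without 1 library the counts were 4 to 5 other intermediate filament, 2 to 3 nuclear envelope, 9 to 11 mesenchymal and 7 to 8 endothelial genes. Other filters change which genes enter the test, and they also moved the log2FC slightly. That of VIM went from 1.36 to 1.34 with no filter and to 1.37 with 10 counts in every library. The cause of the changes with other filters or with library totals was not tested.

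The replicate numbers did not pair the samples: the deviations of same-numbered libraries correlated at -0.023 to 0.039, and 4 of 10 libraries correlated best with the library of their own number. With the replicate block in edgeR, 5786 genes and the same 6 of the 10 genes were called. The differences between the lines in log2 ratio were 4.26 (KRT8 to KRT18), -1.52 (LMNB1 to LMNA) and -6.29 (NES to VIM). Sign flips of the 5 same-numbered differences gave each an adjusted p of 0.0625, the smallest this exact test allows. KRT81, KRT19 in EA.hy926 and most epithelial genes had few or no counts, which limits how well their differences were measured.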
